A study of Homo sapiens with 12 samples.

Results

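The clustered protocadherins are described here across 12 RNA-seq libraries of 3 human carcinoma lines. Members were all genes named PCDHA, PCDHB or PCDHG with a number, a subfamily letter and number, or AC1 and AC2. This gave 55 of the 25647 genes in the tables, of which 15 belong to the alpha cluster, 18 to the beta cluster and 22 to the gamma cluster. RefSeq places them side by side on chromosome 5 of GRCh38, alpha from 140786140 to 141012347, beta from 141051374 to 141249365 and gamma from 141330514 to 141512975. RefSeq classes 53 members as protein coding and 2, PCDHB17 and PCDHB18, as transcribed pseudogenes.

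Protocadherins of these clusters are cadherin-like adhesion proteins that bind the same isoform on a neighbouring cell, and they are best known from neurons, where each cell makes its own small set. In the alpha and gamma clusters each member has its own promoter and variable first exon, which is spliced to constant exons at the cluster's end. Beta members lack constant exons and are each read from a single exon. In neurons the alpha and gamma members other than the C-types, and the beta members, are chosen stochastically by contact of their promoters with distal enhancers through CTCF and cohesin. The C-type members, PCDHAC1, PCDHAC2, PCDHGC3, PCDHGC4 and PCDHGC5, are regulated more uniformly. Promoter methylation and repressive histone marks keep many members silent, and silencing of the clusters has been described in carcinomas.

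The lines are MHCC97H, from a liver carcinoma, HCT116, from a carcinoma of the colon, and A549, from an adenocarcinoma of the lung. Cells of each were untreated or were given 1 µM trichostatin A (TSA), which inhibits histone deacetylases, 50 µM GSK126, which inhibits the histone H3 lysine 27 methyltransferase EZH2, or 100 µM S2101, which inhibits the histone demethylase LSD1. A549 and MHCC97H grew in DMEM and HCT116 in RPMI, so line and medium cannot be told apart. Poly(A) RNA gave 1 library per line and condition. The sources used here give no treatment times and no vehicle for the untreated cells. A condition therefore has 3 replicates, which are the 3 lines. The p-values rest on the spread left once line and condition are fitted over all 12 libraries. That spread covers how unequally the lines responded, and not the differences in level between them.

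Library totals ran from 14468304 to 19061367 reads on genes, so that a level of 0.157 to 0.207 CPM (reads scaled to the library total) stands for 3 reads. The members took few of them, from 606 reads in untreated HCT116 to 2667 in TSA-treated A549, so most single values below rest on few reads. Among markers of the named tissues, untreated HCT116 held EPCAM at 228 CPM against 2.48 in A549 and 0.211 in MHCC97H, and untreated A549 held KRT7 at 2900 CPM against at most 30.0 in the others. Of the liver markers, untreated MHCC97H held HNF4A at 58.6 CPM, highest of the lines, but ALB at 0.562, APOA1 at 0.421 and AFP at 2.74. Of the intestinal markers, untreated HCT116 held CDX2 at 12.1 CPM, highest of the lines, but CDX1 at 0, LGALS4 at 0.0586 and VIL1 at 0.117, and the last 2 were higher in the liver line MHCC97H (167 and 27.0). The lung markers NKX2-1, NAPSA and SFTPB stood at 0, 0.483 and 1.86 CPM in untreated A549, and NKX2-1 at 1.52 in HCT116. These defining markers were thus low in part, and some stood higher in a line of another organ. Within A549 1 library stood apart. Of the genes, 15 had no read in untreated A549 and at least 10 CPM under TSA there, and their median level in the S2101 library of A549 was 7.74% of the TSA level, against 1.75% in the GSK126 library of A549 and 0.23 to 0.39% in the same comparison over 14 such genes in MHCC97H. In HCT116 only 1 gene met these terms, too few for this comparison. It stood at 8.05% of the TSA level in the GSK126 library of HCT116 and at 2.3% in the S2101 library. The S2101 library of A549 enters every fit over the 12 libraries, so counts of calls are given with and without it. Members described below that lose a call without it are named.

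The promoters show what members of a cluster share. RefSeq (GRCh38.p14) gave a promoter of 300 bases for 47 members, 13 alpha, 14 beta and 20 gamma. Protocadherin promoters are known for a conserved element with the core CGCT. On the gene's strand and 90 to 10 bases before the start, CGCT (overlaps allowed) was found in 12 of 13 alpha, 13 of 14 beta and 18 of 20 gamma promoters, against 23.8% of 27305 promoters, taken as 1 per gene symbol. The element's surroundings differ by cluster. For each cluster the run of 10 bases found in the largest number of its promoters was taken, and counted on both strands. It was ATGATGTCGC in alpha (8 of 13, against 0.0403% of all promoters), GGTGGCGCTG in beta (12 of 14, against 0.282%) and GCGCCGCTGT in gamma (9 of 20, against 0.128%). Each run was chosen from these same promoters, so its share in its own cluster is a description and not a test. The 11, 77 and 35 promoters of the whole set with these runs include those of the members. None of these 3 runs occurred in a promoter of another protocadherin cluster. These matches are descriptions of letters and not of bound sites.

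Windows of 44 bases on the plus strand, which is the gene strand of each member shown, are printed with CGCT in capitals for members on which the results below turn. The first group holds some of the members that were higher under TSA.
PCDHA1, chr5:140786080-140786123: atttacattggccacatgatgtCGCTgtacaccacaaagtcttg
PCDHA6, chr5:140827891-140827934: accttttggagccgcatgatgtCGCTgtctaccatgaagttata
PCDHB7, chr5:141172560-141172603: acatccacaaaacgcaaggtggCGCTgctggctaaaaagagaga
PCDHB10, chr5:141192293-141192336: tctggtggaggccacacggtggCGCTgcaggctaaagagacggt
PCDHB12, chr5:141208637-141208680: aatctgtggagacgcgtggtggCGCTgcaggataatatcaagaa
PCDHB14, chr5:141223257-141223300: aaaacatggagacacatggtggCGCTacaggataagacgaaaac
PCDHB16, chr5:141182304-141182347: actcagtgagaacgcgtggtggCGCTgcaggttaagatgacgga
PCDHGA2, chr5:141338697-141338740: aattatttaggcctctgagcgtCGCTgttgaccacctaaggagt
PCDHGA11, chr5:141420966-141421009: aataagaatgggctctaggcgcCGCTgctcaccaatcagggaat
The second group holds members called between no lines and under no compound (PCDHA9, PCDHB9) or that set lines apart (PCDHAC1, PCDHB2, PCDHGA10, PCDHGC3). The window of PCDHA9 holds no CGCT.
PCDHA9, chr5:140848304-140848347: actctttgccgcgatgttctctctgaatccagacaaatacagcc
PCDHB9, chr5:141187068-141187111: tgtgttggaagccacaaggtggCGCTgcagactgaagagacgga
PCDHAC1, chr5:140926214-140926257: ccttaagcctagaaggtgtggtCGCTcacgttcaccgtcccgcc
PCDHB2, chr5:141094538-141094581: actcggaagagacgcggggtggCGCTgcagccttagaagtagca
PCDHGA10, chr5:141412925-141412968: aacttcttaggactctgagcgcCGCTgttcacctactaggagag
PCDHGC3, chr5:141475893-141475936: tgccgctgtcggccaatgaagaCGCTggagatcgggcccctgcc
Set side by side, PCDHA1 and PCDHA6 both hold the alpha run, as do PCDHB7, PCDHB10, PCDHB12 and PCDHB16 the beta run, while PCDHB14 holds the core without it. Of the 12 promoters available for members higher under TSA, 11 held CGCT at this place, beside 43 of the 47 over all members. The exception among the 12 was PCDHGB2, whose window is not printed. Whether CGCT bears on the change under TSA was not tested. PCDHB9 and PCDHB2, which were not called under TSA, hold the beta run as well.

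How the authors' counting treated reads that fit several members is not given in the sources used here. In the longest GENCODE v29 transcript of each member, the share of stretches of 50 bases found in no other member had a median of 42.0% in alpha, 52.6% in gamma and 85.7% in beta. The transcripts of alpha members end in a shared stretch with a median of 2868 bases, and those of gamma members in one of 2184 bases, while beta members share at most 4 end bases. Several alpha members were at 0 in HCT116 libraries in which PCDHAC1 had 85 to 149 reads, so reads of the shared exons were not added to every member. Values of single alpha and gamma members are thus less certain than those of beta members.

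**Figure D1:**
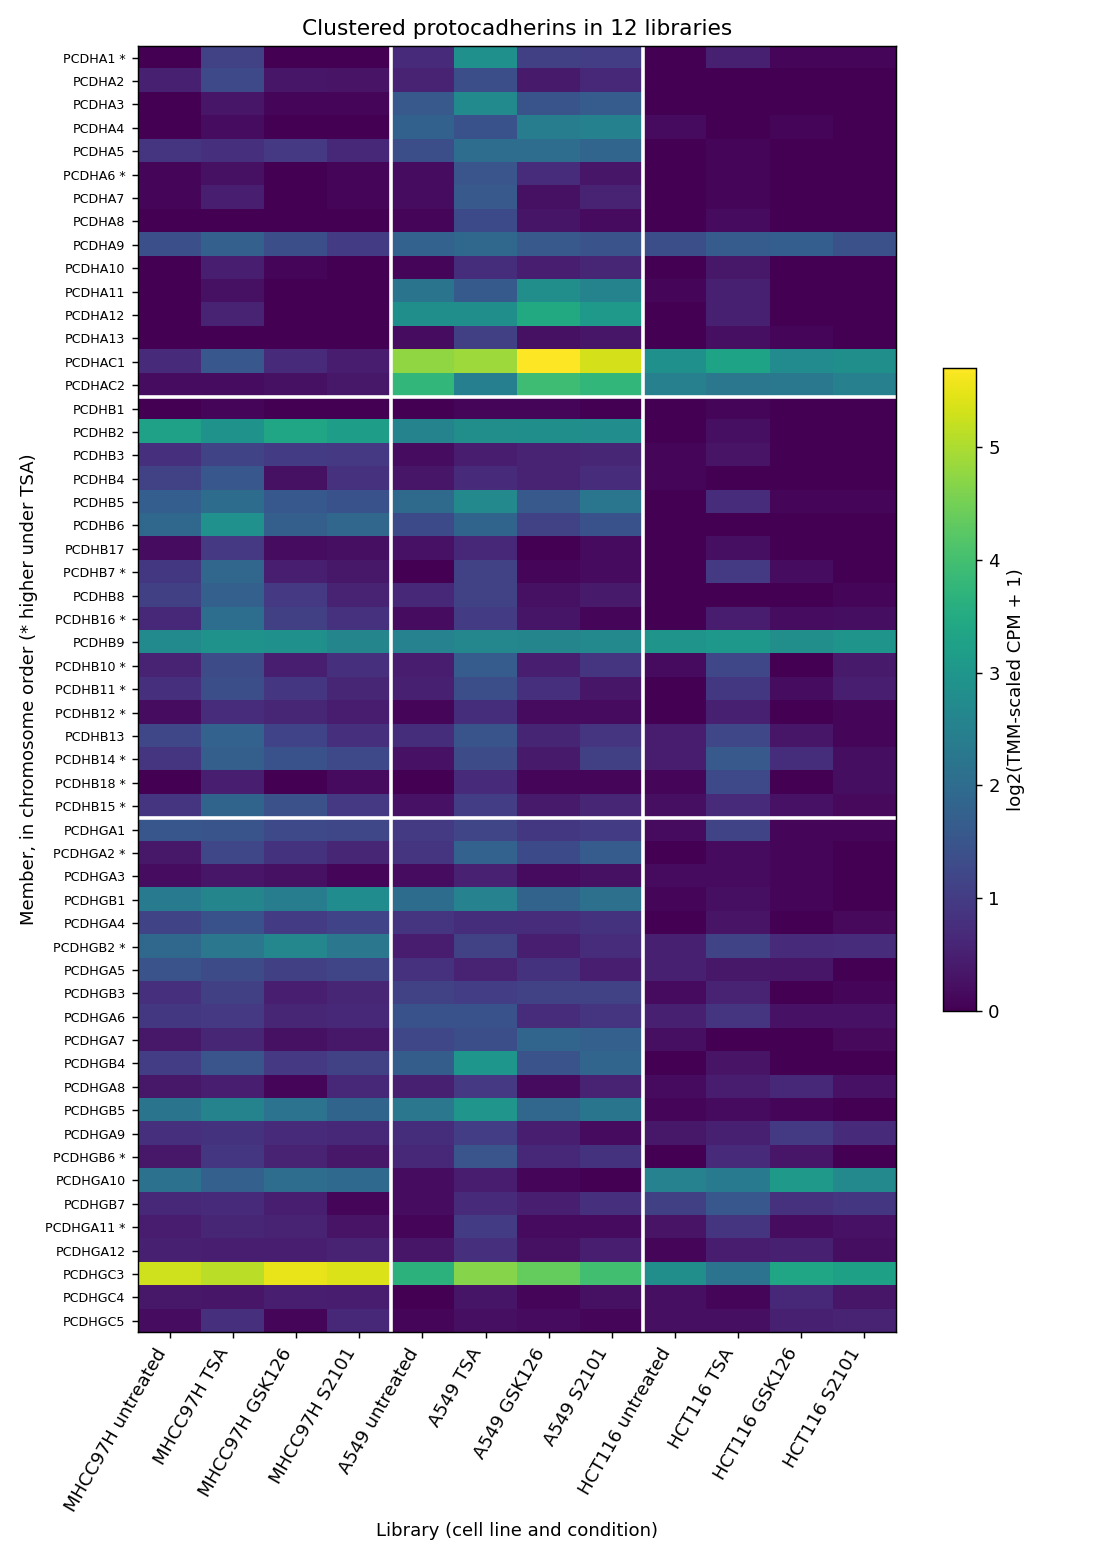
Level of each of the 55 members (rows, in chromosome order, with white lines between the alpha, beta and gamma clusters) in the 12 libraries (columns, grouped by line), as log2 of TMM-scaled CPM plus 1. PCDHAC1 is brightest in A549 and PCDHGC3 in MHCC97H, PCDHB9 is at a similar level in each column, and the asterisks mark the 14 members higher under TSA.

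The 3 lines differed first in which cluster supplied the protocadherin reads. In untreated A549 the alpha cluster held 854 reads, the beta cluster 250 and the gamma cluster 451. Untreated MHCC97H held 54 alpha, 404 beta and 903 gamma reads. Untreated HCT116 held 217 alpha, 136 beta and 253 gamma reads. A549 was thus the line with most alpha reads, MHCC97H the line with most beta and gamma reads, and HCT116 had fewest of beta and gamma.

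When untreated, each line also had its own leading member. By RPKM, the scale on which genes of different length can be compared, PCDHGC3 led in untreated MHCC97H (7.14, followed by PCDHB2 at 2.76), PCDHAC1 in untreated A549 (4.43, followed by PCDHGC3 at 2.27) and PCDHB9 in untreated HCT116 (1.61, followed by PCDHGC3 at 1.33). The leading member took 39.9% of member reads in untreated MHCC97H, 24.4% in A549 and 19.1% in HCT116, with exact 95% intervals of 37.3 to 42.6%, 22.3 to 26.7% and 16.1 to 22.5% that cover counting error only. The lead was narrow in untreated HCT116, with 116 reads of PCDHB9, 108 of PCDHAC1 and 103 of PCDHGC3. By reads, PCDHGC3 led in HCT116 under GSK126 (22.5% of member reads) and S2101 (21.8%), and PCDHAC1 under TSA (17.1%). By RPKM PCDHB9 (1.84) and PCDHAC1 (1.82) were about equal in TSA-treated HCT116. Over all 12 libraries PCDHGC3 (mean RPKM 4.36), PCDHAC1 (2.72), PCDHB2 (1.61) and PCDHB9 (1.35) were highest.

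Calls between lines came from edgeR's quasi-likelihood test, with p-values adjusted by Benjamini-Hochberg over all 16929 genes tested (threshold 0.05), with condition and line as terms. No line has a replicate within a condition, so the differently treated libraries of a line stand as its replicates in these contrasts. The test includes 44 members, and 11 fell below the filter on low counts. A549 was above HCT116 for 27 members (22.8% of all genes tested were) and below for 1 (20.9%). MHCC97H was above HCT116 for 24 members (26.9% of all genes) and below for 2 (27.5%). A549 was above MHCC97H for 12 members (22.6% of all genes) and below for 6 (20.4%). Against either other line the alpha cluster was higher in A549, in 10 of its 11 tested members against HCT116 and in 9 against MHCC97H, while the beta cluster was higher in MHCC97H than in HCT116 for 11 of its 16. The median log2 difference between A549 and MHCC97H was 4.89 over the 11 tested alpha members and -0.89 over the 16 beta members, beside 0.05 over all genes. Without the A549 S2101 library 26 members were called between A549 and HCT116, 24 of them higher in A549, beside 33.7% of all genes. Between MHCC97H and HCT116 27 were called, 24 of them higher in MHCC97H, beside 51.0% of all genes. Between A549 and MHCC97H 15 were called, 10 of them higher in A549, beside 32.3% of all genes. Calls lost without that library were those of PCDHB3, PCDHGA1 and PCDHGB6 between A549 and HCT116, and PCDHA3 between MHCC97H and HCT116. Between A549 and MHCC97H they were those of PCDHB6, PCDHGA2, PCDHGB4 and PCDHGC3.

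PCDHAC1, the first alpha C-type, had 380, 462, 794 and 605 reads in A549 untreated and under TSA, GSK126 and S2101. In HCT116 it had 108, 149, 85 and 112, and in MHCC97H 9, 29, 9 and 6. The 3 lines did not overlap under any condition. The fitted log2 difference was 2.45 ± 0.39 (SE) for A549 against HCT116 (edgeR adjusted p = 0.000975) and 5.50 ± 0.47 for A549 against MHCC97H (edgeR adjusted p = 4.17e-05). PCDHAC2, the other alpha C-type, followed the same order, with 185, 79 and 2 reads in untreated A549, HCT116 and MHCC97H. PCDHA12 had 90, 101, 155 and 115 reads in A549, and at most 7 in any library of the other lines. PCDHA3 had 182 reads over the 4 A549 libraries and 0 in HCT116, which is at least 65.7-fold higher when a floor of 3 reads stands for the group at 0.

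In the beta cluster PCDHB2, the second beta member in chromosome order, had 123, 98, 139 and 142 reads in MHCC97H and 71, 99, 96 and 91 in A549, in the order untreated, TSA, GSK126, S2101. HCT116 held 3 PCDHB2 reads under TSA and 0 elsewhere. PCDHB6 went the same way, with 218 reads over the MHCC97H libraries, 107 over those of A549 and 0 in HCT116, at least 78.5-fold and 38.6-fold above the floor of 3 reads for HCT116. PCDHB9, which lies between PCDHB16 and PCDHB10, was the exception to this pattern, with 69 to 85 reads in A549, 81 to 98 in MHCC97H and 89 to 122 in HCT116. In TMM-scaled CPM MHCC97H (5.03 to 6.49) overlapped both other lines, while A549 (4.76 to 5.43) lay below HCT116 (6.05 to 7.27). No line contrast of PCDHB9 passed the threshold (lowest edgeR adjusted p = 0.124). In HCT116 PCDHB9 alone made up 85.3% of the untreated beta reads (exact 95% interval 78.2 to 90.8%). PCDHA9 also passed in no line contrast, with 17 to 45 reads in each of the 12 libraries. Its TMM-scaled CPM, 0.983 to 2.77, ranged more widely for its level than that of PCDHB9. Of the stretches of 50 bases in its longest transcript, 88.0% occur in no other member.

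In the gamma cluster PCDHGC3, a C-type member, had 543, 511, 674 and 718 reads in MHCC97H, 169, 397, 301 and 224 in A549 and 103, 58, 139 and 154 in HCT116, again in the order untreated, TSA, GSK126, S2101. MHCC97H was highest and HCT116 lowest under each condition. All 3 line contrasts passed over the 12 libraries, with log2 differences of 2.56 ± 0.31 for MHCC97H against HCT116, 1.39 ± 0.31 for A549 against HCT116 and -1.17 ± 0.30 for A549 against MHCC97H (edgeR adjusted p = 0.000156, 0.00598 and 0.0118). Without the A549 S2101 library the contrast of A549 with MHCC97H did not pass (-1.02 ± 0.34, edgeR adjusted p = 0.0518). PCDHGA10 ran against the cluster, with 81, 70, 109 and 100 reads in HCT116, 49, 36, 47 and 50 in MHCC97H, and 2, 6, 1 and 0 in A549. Summed over 4 libraries its level in HCT116 was 36.9-fold that in A549 (counting interval 19.2 to 81.4), and it was the 1 member called lower in A549 than in HCT116. PCDHGB4 showed the opposite, with 32, 113, 27 and 40 reads in A549 and 0 to 4 in HCT116.

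**Figure D2:**
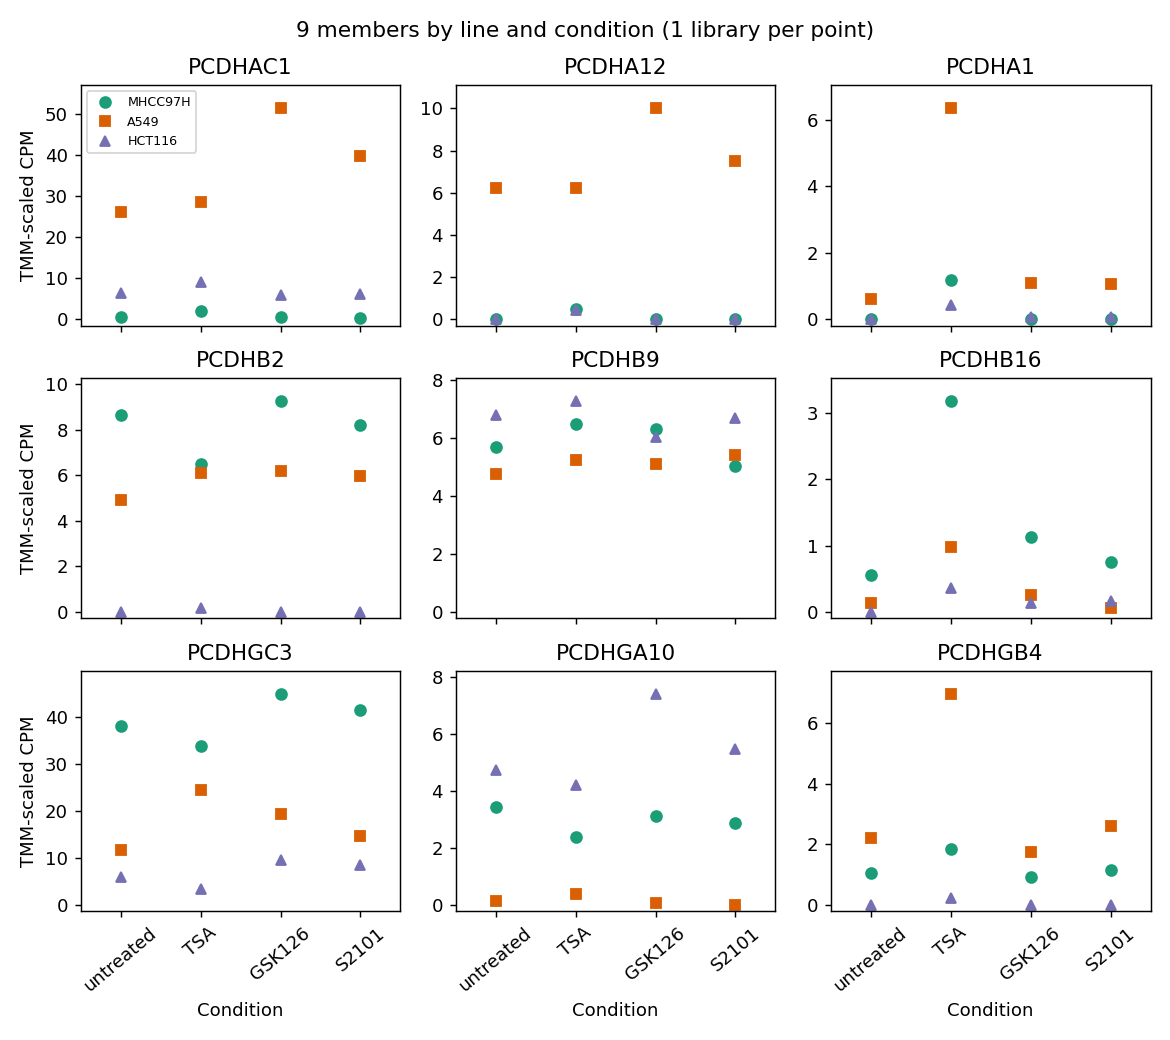
TMM-scaled CPM (y axis, own scale per panel) of 9 members in each condition (x axis), 1 point per library and 1 symbol per line. PCDHAC1 and PCDHA12 are highest in A549, PCDHB2 and PCDHGC3 in MHCC97H and PCDHGA10 in HCT116. PCDHB9 lies between 4.76 and 7.27 in all 12 libraries, and PCDHA1 and PCDHB16 are highest under TSA in each line.

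TSA raised 14 of the 44 tested members (31.8%) and lowered none, against 17.4% of all tested genes called higher and 17.2% called lower. The members that rose were PCDHA1 and PCDHA6 in the alpha cluster, PCDHB7, PCDHB10, PCDHB11, PCDHB12, PCDHB14, PCDHB15, PCDHB16 and PCDHB18 in the beta cluster, and PCDHGA2, PCDHGA11, PCDHGB2 and PCDHGB6 in the gamma cluster. These are 2 of 15 alpha, 8 of 18 beta and 4 of 22 gamma members. Of the members tested they are 2 of 11 alpha (18.2%), 8 of 16 beta (50.0%) and 4 of 17 gamma (23.5%). The alpha and gamma shares thus lie near the 17.4% of all tested genes. No C-type member was called. Each of the 14 had more TMM-scaled CPM under TSA in 3 of 3 lines, with fitted log2 changes of 1.25 to 4.80 and edgeR adjusted p of 0.00498 to 0.0495. Without the A549 S2101 library 10 of them were called, and PCDHB11, PCDHGA11, PCDHGB2 and PCDHGB6 were not (edgeR adjusted p = 0.0574, 0.0619, 0.0617 and 0.0645). In that fit 28.0% of all genes were called in either direction, against 34.6% with the library. Whether the clusters differ in their response was not tested.

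The filter on low counts bears on this count. Of the 44 members tested, 37 would have been tested without the TSA libraries, and 7 entered through their TSA reads. Of the 14 called, 8 are among the 37 and 6 among the 7 (PCDHA6, PCDHB7, PCDHB12, PCDHB18, PCDHGB6 and PCDHGA11). The median log2 change over the 44 was 1.21, beside 0.08 over all genes tested, and is given as a description of members that passed the filter. The 11 members below the filter had 4 to 71 reads each over the 12 libraries, 54 together in the untreated libraries and 227 under TSA.

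In the alpha cluster PCDHA1, the first member and farthest from the shared exons, had 0, 9 and 0 reads in untreated MHCC97H, A549 and HCT116 and 18, 103 and 7 under TSA. Each line was higher under TSA, though the 7 reads of TSA-treated HCT116 lie near the 9 of untreated A549. The mean rose from 0.207 ± 0.358 to 2.65 ± 3.22 CPM (SD, n = 3 lines), a log2 change of 4.24 ± 0.86 (edgeR adjusted p = 0.00707). PCDHA6 had 1, 2 and 0 reads untreated and 3, 30 and 1 under TSA, so that A549 held nearly all its TSA reads. Its sums of 34 and 3 reads differ 10.8-fold with a counting interval of 3.40 to 55.1 (log2 change 3.03 ± 0.86, edgeR adjusted p = 0.0249). Among alpha members below the filter, PCDHA7 went from 3 reads over the untreated libraries to 40 under TSA, PCDHA8 from 1 to 25, PCDHA10 from 1 to 22 and PCDHA13 from 2 to 21. With no filter on low counts PCDHA7, PCDHA8 and PCDHA10 were called higher. PCDHA12, the leading alpha member of A549 apart from the C-types, had 0, 90 and 0 reads in untreated MHCC97H, A549 and HCT116 and 7, 101 and 7 under TSA. It was not called (log2 change 2.18 ± 1.22, edgeR adjusted p = 0.189), while DESeq2 called it (4.23, adjusted p = 0.0181).

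In the beta cluster 8 of 16 tested members rose, and PCDHB17, below the filter, went from 5 reads over the untreated libraries to 26 under TSA. PCDHB7 had 13, 0 and 0 reads in untreated MHCC97H, A549 and HCT116 and 41, 19 and 16 under TSA. The groups do not overlap, but only narrowly (at most 0.913 CPM untreated, at least 0.961 under TSA). Their means were 0.304 ± 0.527 and 1.62 ± 0.957 CPM (SD, n = 3 lines), with a log2 change of 3.05 ± 0.86 (edgeR adjusted p = 0.0245). PCDHB12 had 2, 1 and 0 reads untreated and 10, 11 and 7 under TSA. Its groups do not overlap either, and its sums of 28 and 3 reads differ 8.91-fold (counting interval 2.75 to 45.8, log2 change 3.22 ± 0.85, edgeR adjusted p = 0.0192). Both PCDHB7 and PCDHB12 passed the filter only through their TSA reads. The share of all genes whose groups lie apart was not counted, so such gaps here and below are descriptions.

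PCDHB16 had 8, 2 and 0 reads untreated and 48, 16 and 6 under TSA, in the same order of lines. Each line was higher under TSA, with MHCC97H above the others in both conditions (log2 change 2.81 ± 0.60, edgeR adjusted p = 0.0088). PCDHB10 had 7, 5 and 2 reads untreated and 23, 35 and 22 under TSA, with no overlap (log2 change 2.51 ± 0.60, edgeR adjusted p = 0.0127). PCDHB18, classed as a pseudogene, had 1 read over the untreated libraries, in HCT116, and 6, 10 and 23 under TSA. It had the largest fitted change of the members (4.80 ± 0.88, edgeR adjusted p = 0.00498), and the sums of 39 and 1 reads leave its fold between 6.30 and 1510.0. PCDHB14 had 12, 3 and 6 reads untreated and 35, 24 and 34 under TSA, and PCDHB11 10, 6 and 0 against 24, 26 and 15. PCDHB15 had 12, 3 and 3 reads untreated and 39, 17 and 10 under TSA. By contrast PCDHB2 had 123, 71 and 0 reads untreated and 98, 99 and 3 under TSA (log2 change 0.26 ± 0.57, edgeR adjusted p = 0.747), and PCDHB9 had 81, 69 and 116 against 98, 85 and 121 (0.14 ± 0.21, edgeR adjusted p = 0.629). PCDHB5 had 32, 42 and 0 reads untreated and 46, 89 and 11 under TSA, higher in each line but short of the threshold (1.34, edgeR adjusted p = 0.129).

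In the gamma cluster PCDHGA2 had 4, 12 and 0 reads in untreated MHCC97H, A549 and HCT116 and 20, 40 and 2 under TSA. Every line was higher, with the lines far apart (log2 change 2.0 ± 0.58, edgeR adjusted p = 0.0267). PCDHGA11 had 5, 1 and 4 reads untreated and 8, 16 and 14 under TSA, which do not overlap (log2 change 1.93 ± 0.63, edgeR adjusted p = 0.0408). PCDHGB6 had 4, 8 and 0 reads untreated and 13, 30 and 10 under TSA (log2 change 2.21 ± 0.76, edgeR adjusted p = 0.0495). PCDHGB2, the strongest of the 4 in untreated cells, had 39, 5 and 7 reads untreated and 57, 19 and 21 under TSA (log2 change 1.25 ± 0.42, edgeR adjusted p = 0.0442). PCDHGA10, second to PCDHGC3 among gamma members over the HCT116 libraries, stood at 49, 2 and 81 reads untreated and 36, 6 and 70 under TSA and was not called (0.02 ± 0.51, edgeR adjusted p = 0.975).

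**Figure D3:**
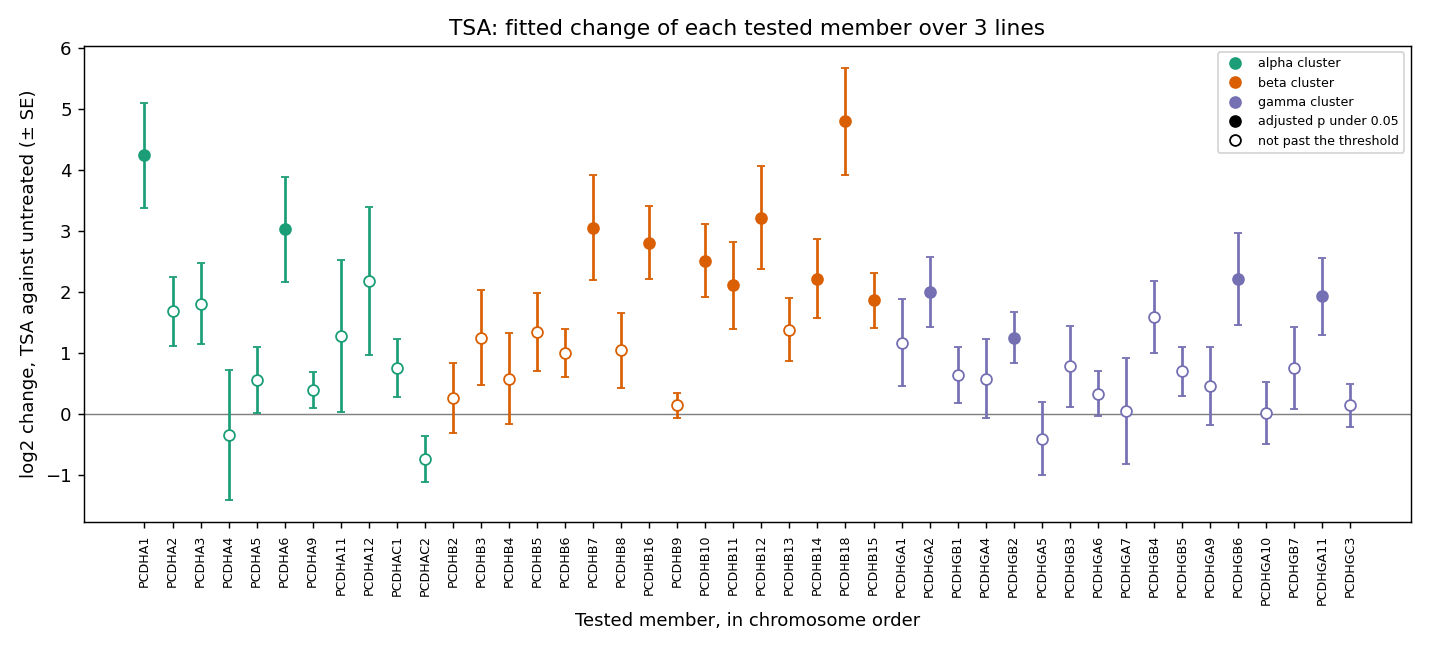
Fitted log2 change under TSA (y axis, points with ± SE) of the 44 tested members in chromosome order (x axis), coloured by cluster and filled where the edgeR adjusted p was under 0.05. The 14 filled points are 2 alpha, 8 beta and 4 gamma members, and the changes of PCDHB9, PCDHGA10 and PCDHGC3 lie within 0.14 of 0.

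The most abundant members did not pass the threshold under TSA. The 6 with the highest mean CPM, PCDHGC3, PCDHAC1, PCDHB9, PCDHAC2, PCDHB2 and PCDHGA10, had log2 changes of -0.74 to 0.75 with a median of 0.14, while the 14 members that rose had untreated means of 0.0195 to 1.16 CPM. The C-type members moved unequally between lines. PCDHAC2 had 185 reads in untreated A549 and 73 under TSA, and 79 and 63 in HCT116 (log2 change -0.74 ± 0.37, edgeR adjusted p = 0.148). PCDHAC1 was at 380 and 462 in A549, 108 and 149 in HCT116 and 9 and 29 in MHCC97H (0.75 ± 0.47, edgeR adjusted p = 0.23). PCDHGC3 was at 169 and 397 in A549 but 543 and 511 in MHCC97H and 103 and 58 in HCT116, values in opposite directions (0.14 ± 0.35, edgeR adjusted p = 0.77). PCDHGC4 and PCDHGC5 had at most 11 reads in any library and were not tested.

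Summed over members other than the C-types, reads changed under TSA by 0.59 in MHCC97H, 0.91 in A549 and 0.99 in HCT116 (log2, TMM scale), a mean of 0.83 ± 0.21 (SD, n = 3 lines). The sum of the C-type members changed by -0.09, 0.19 and -0.07, a mean of 0.01 ± 0.16. The lines do not overlap between these sums, a difference that was not tested. The C-type sum pools subgroups that moved in opposite directions. In MHCC97H, A549 and HCT116 the alpha C-types changed by 1.41, -0.24 and 0.22, and the gamma C-types by -0.15, 1.09 and -0.78. Taken singly, both C-type subgroups overlap the sum of the other members. By subgroup the mean change was 1.17 ± 0.25 for alpha members 1 to 13, 0.95 ± 0.23 for beta, 0.40 ± 0.28 for gamma A and 0.99 ± 0.49 for gamma B. It was 0.46 ± 0.85 for the alpha C-types and 0.05 ± 0.95 for the gamma C-types.

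**Figure D4:**
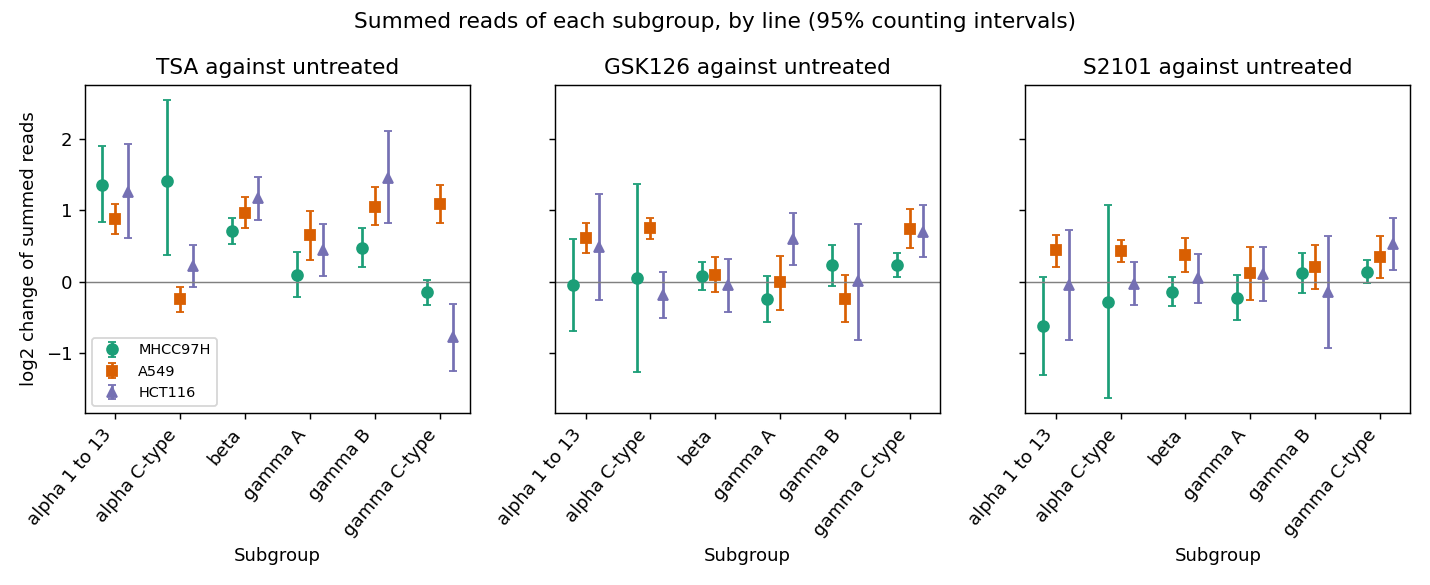
Log2 change of the summed reads of each subgroup (x axis) against untreated, per compound (panels) and line (symbols), with 95% intervals that cover counting error only. Under TSA the 3 lines lie above 0 for alpha 1 to 13 (0.88 to 1.36), beta (0.71 to 1.17) and gamma B (0.47 to 1.45), while gamma C-type members range from -0.78 to 1.09.

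At 1 CPM or more, more members were detected under TSA in 3 of 3 lines, with means of 13.7 ± 6.1 untreated and 28.0 ± 12.5 treated (SD, n = 3 lines), a difference that was not tested. In detail, 15, 19 and 7 of the 55 members were detected in untreated MHCC97H, A549 and HCT116, and 29, 40 and 15 under TSA. At 0.2 CPM the count was also higher in 3 of 3 lines, but at 5 CPM it was 3, 4 and 3 untreated and 6, 11 and 2 under TSA, lower in HCT116. The share of all genes detected at 1 CPM went from 51.1, 52.9 and 54.0% to 57.1, 59.1 and 58.2%. In A549 14 of the 15 alpha members were detected under TSA against 8 untreated, and in MHCC97H 14 of the 18 beta members against 6. In 606 member reads drawn from each library, a measure of how evenly reads spread over members and not of detection at equal library depth, 41.7, 43.6 and 31.0 members would have a read on average in the untreated libraries and 49.5, 52.0 and 45.9 under TSA. The leading member took 27.8% of member reads in TSA-treated MHCC97H (exact 95% interval 25.7 to 29.9%), 17.3% in A549 (15.9 to 18.8%) and 17.1% in HCT116 (14.6 to 19.7%). These intervals lie below the untreated ones in MHCC97H and A549 and overlap in HCT116. There the leader by reads passed from PCDHB9 to PCDHAC1, while by RPKM PCDHB9 stayed just ahead (1.84 against 1.82). In bulk RNA a change in more cells and a change per cell cannot be told apart.

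**Figure D5:**
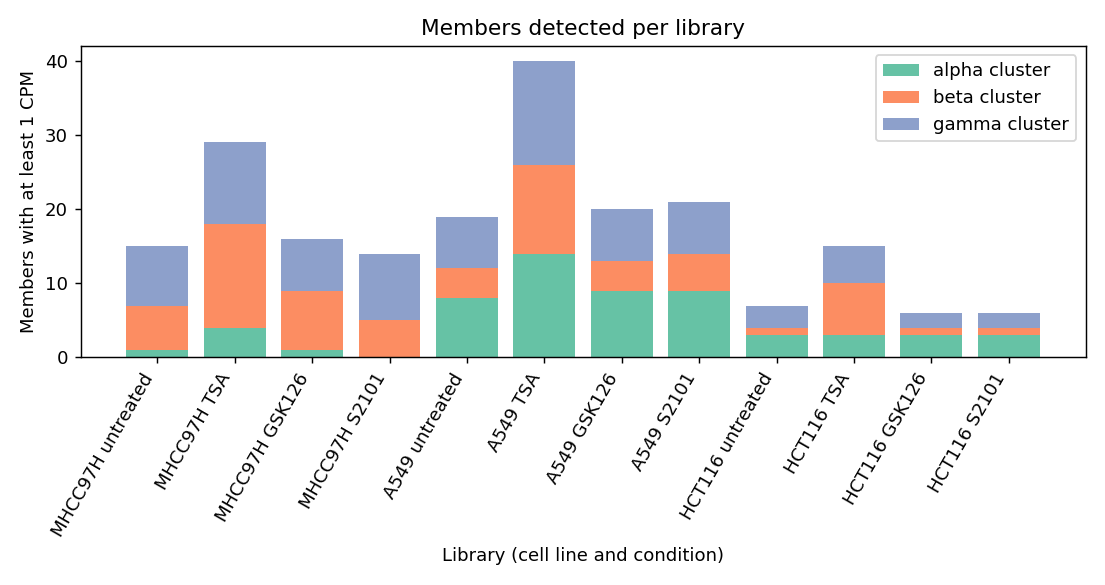
Number of members with at least 1 CPM (stacked bars, by cluster) in each of the 12 libraries (x axis). The TSA bars reach 29 in MHCC97H, 40 in A549 and 15 in HCT116, above the other bars of the same line, which reach at most 16, 21 and 7.

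The number of members called under TSA depended on the lines, as did the share of all genes called, which was 34.6% in the main fit. It was 2 without MHCC97H (PCDHA1 and PCDHB18), 0 without A549, 14 without HCT116, of which 10 were among the 14, 0 when only the 6 untreated and TSA libraries were fitted, where no gene of the whole table was called and 11 members had an unadjusted p under 0.05, and 0 without a term for the line, where 1.59% of all genes were called against 34.6%. A higher level in 3 of 3 lines was seen for 27 of the 44 tested members, against 28.3% of all genes tested, and for 34 of all 55. The 44 include 7 members that passed the filter only through their TSA reads, so their count is a description and not a test. The 28.3% covers genes past the filter, so no share over all genes stands beside the 34 of 55.

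Neither GSK126 nor S2101 moved a member past the threshold. Of all genes, 0.0% were called higher under GSK126 and 0.0% under S2101 by edgeR, and DESeq2 called 1206 and 18 genes in either direction. At an unadjusted p under 0.05, 1 member was lower under GSK126, PCDHGA6 with 13, 25 and 7 reads untreated and 8, 10 and 3 treated (log2 change -1.06 ± 0.40, edgeR adjusted p = 0.222), and 0 were past it under S2101. DESeq2 called 0 members for each compound. Under GSK126 8 of the 44 tested members were higher in 3 of 3 lines (22.0% of all genes tested were), and under S2101 5 (17.9%). The 3 compounds share their untreated libraries, so their changes are not independent.

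PCDHGC3 had 543, 169 and 103 reads in untreated MHCC97H, A549 and HCT116 and 674, 301 and 139 under GSK126. It was higher in 3 of 3 lines (log2 change 0.52 ± 0.35, edgeR adjusted p = 0.518). In a fit without the TSA libraries, in which 2114 of 16201 genes were called, it was the 1 member called of 37 tested (0.55 ± 0.15, edgeR adjusted p = 0.0425). Under S2101 it had 718, 224 and 154 reads (0.31 ± 0.34, edgeR adjusted p = 1.0). PCDHAC1 had 380 reads in untreated A549, 794 under GSK126 and 605 under S2101, against 108, 85 and 112 in HCT116 and 9, 9 and 6 in MHCC97H, and was not called. The subgroup sums in A549 under GSK126 changed by 0.75 for the alpha C-types and 0.61 for alpha members 1 to 13, both with counting intervals above 0, and by 0.10 for the beta cluster. The gamma C-types changed by 0.23 in MHCC97H, 0.74 in A549 and 0.70 in HCT116, also with counting intervals above 0.

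The 14 members that rose under TSA, chosen for being high there, had 929 reads under TSA, 343 under GSK126, 339 under S2101 and 197 untreated. That choice favours lower levels in the other conditions, and no share over all genes raised by TSA was counted, so the counts are descriptions. Of the 14, 13 were lower under GSK126 than under TSA in 3 of 3 lines, and 13 under S2101. PCDHGB2 was the exception for both, with 79, 6 and 9 reads under GSK126 and 66, 10 and 12 under S2101 against 57, 19 and 21 under TSA in MHCC97H, A549 and HCT116. PCDHA1 in A549 had 9 reads untreated, 17 under GSK126 and 16 under S2101, against 103 under TSA. PCDHB7 over the 3 lines had 13 reads untreated, 9 under GSK126 and 7 under S2101, against 76 under TSA. The members detected at 1 CPM numbered 16, 20 and 6 under GSK126 and 14, 21 and 6 under S2101, close to the untreated 15, 19 and 7. The highest and lowest fitted changes of beta and gamma members under S2101 were 2.18 for PCDHB18, which had 6 reads over the 3 lines against 1 untreated, and -1.12 for PCDHGA5 (edgeR adjusted p = 0.939 for each). Leaving out the A549 S2101 library gave 0 members called under S2101, with a median log2 change of -0.02 in place of 0.16.

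Genes that act with the clusters or lie beside them were counted from lists chosen with earlier results of these data known, to be read against the 17.4% of all tested genes that TSA raised and the 17.2% that it lowered. Of 7 tested protocadherins outside the clusters, TSA raised 3 and lowered none. PCDH10 had 0, 1.45 and 0 CPM in untreated MHCC97H, A549 and HCT116 and 0.199, 29.8 and 0.240 under TSA, with A549 holding most of its reads (log2 change 4.49 ± 0.58, edgeR adjusted p = 0.00184). PCDH19 had 0, 0.069 and 1.76 CPM untreated and 0.0662, 13.8 and 11.4 under TSA, and PCDH1 rose by 2.25 ± 0.57.

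Of 10 tested genes for CTCF and cohesin, the complex that loops protocadherin promoters to enhancers, TSA lowered 7 and raised none. The cohesin subunit STAG2 had 332, 201 and 172 CPM untreated and 62.8, 39.2 and 88.9 under TSA (log2 change -1.81 ± 0.34, edgeR adjusted p = 0.00526). RAD21, another subunit, fell by 1.26 and CTCF by 0.88 on the log2 scale. Of 10 silencing factors TSA lowered 5 and raised none, among them the DNA methyltransferases DNMT1 (-1.04 ± 0.25, edgeR adjusted p = 0.0131) and DNMT3A (-1.27 ± 0.21, edgeR adjusted p = 0.00381). The median log2 change was -0.85 over the 10 CTCF and cohesin genes and -0.71 over the 10 silencing factors, beside 0.08 over all genes tested.

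Of 11 tested genes that flank the clusters TSA raised 3 and lowered 1, with a median log2 change of 0.07 beside 0.08 over all genes tested. HDAC3, a histone deacetylase gene beyond the gamma cluster, had 32.9, 52.5 and 82.1 CPM untreated and 109, 127 and 91.9 under TSA (1.12 ± 0.28, edgeR adjusted p = 0.0163). TAF7, which lies between the beta and gamma clusters, was at 96.2 ± 18.2 CPM untreated and 96.8 ± 22.2 under TSA (0.03 ± 0.21, edgeR adjusted p = 0.931). Of 11 partners of the intracellular domain TSA raised FYN (3.62 ± 1.1) and RET (2.37 ± 0.67) and lowered 3, among them NCKAP1 of the WAVE complex (-1.38 ± 0.16). Of 14 tested epithelial markers 2 fell and none rose, KRT7 (-3.01 ± 0.55) and KRT18 (-0.93 ± 0.23). Their part in the members' changes was not tested. No gene of these lists was called under GSK126 or S2101.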

How the data were processed

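Poly(A) RNA was sequenced in 12 libraries, 1 for each of 3 lines under 4 conditions, prepared with NEBNext Ultra reagents (per the labels). For every library the authors deposited the raw count of reads on each gene, per the file headers. Beside it stands the RPKM that the authors computed per kilobase of transcript, per the file headers, which is used here for levels between genes. The submitters' processing notes name the builds GRCh38 and hg38. The sources used here do not give the aligner, the counter, or how strand and reads that fit several genes were handled.

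Genes in all 12 tables (25647) were used, and an entry without counts in 11 tables was left out. Counts were tested with edgeR 4.0.16 (R 4.3.3), quasi-likelihood F test, TMM scaling, filterByExpr and condition and line as terms over all 12 libraries, with Benjamini-Hochberg adjustment over the 16929 genes kept and a threshold of 0.05. The line pairs treated and untreated libraries, since each line gave 1 library per condition. CPM with a mean, SD or fold are TMM-scaled, and detection uses library totals. Intervals and the floor of 3 reads cover counting error only, at 95%. On simulated counts for TSA against untreated (12104 genes tested) the model called 32 of 50 genes changed 2-fold, all 50 each at 4-, 8- and 16-fold, and 5 unchanged genes. The changed genes were picked among genes with higher mean reads than nearly all members called under TSA. Their simulated spread was set below the common spread fitted to the data (biological coefficient of variation 0.296). Recovery at the low counts of most members was therefore not simulated. Alternatives were RLE scaling, other filters, no line term, leaving out each line, the 6 libraries compared, DESeq2 1.42.0 and, chosen after the data were seen, leaving out the A549 S2101 library or the TSA libraries.

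Promoters came from RefSeq (GRCh38.p14) and transcripts from GENCODE v29. The members and lists were chosen with earlier results of these data known. Named genes were members called for a compound, PCDHB7 and PCDHB12, the C-types, the 3 members of each cluster with the highest mean CPM, the 2 per cluster and compound with the largest change, and up to 4 called genes per list. PCDHA3, PCDHA7 to PCDHA10, PCDHA13, PCDHB6, PCDHB17, PCDHGB4 and the uncalled marker and flanking genes were named after their values were seen.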

Additional observations from a re-analysis of the deposited data

Results flagged for a closer look

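Summed reads of the C-type members changed in opposite directions between lines under TSA, with counting intervals on opposite sides of 0. The sum of PCDHAC1 and PCDHAC2 changed by -0.24 on the log2 scale in A549, from 565 to 535 reads, and by 1.41 in MHCC97H, from 11 to 31 reads. The sum of PCDHGC3, PCDHGC4 and PCDHGC5 changed by 1.09 in A549, from 170 to 404 reads, and by -0.78 in HCT116, from 109 to 62 reads. Each line has 1 library per condition, so the difference between lines was not tested. The intervals cover counting error only.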

How the results depend on the processing

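Members called under TSA numbered 14. They numbered 9 with at least 1 CPM required in at least 3 libraries, where 34.6% of all genes were called. They numbered 0 without the cell line term (no replicate block), where 1.59% of all genes were called. In the fit of the 6 libraries compared they numbered 0, where 0 of all genes were called and 11 members had an unadjusted p under 0.05. Leaving out a line gave 0 (A549), 2 (MHCC97H) and 14 (HCT116), a range of 0 to 14. The fit of 6 libraries and those without a line hold fewer samples by construction; the cause of the other losses was not tested. RLE scaling gave 14, no filter 13 and DESeq2 13, of which 14, 10 and 11 were among the 14. Of all genes 34.4%, 24.4% and 39.8% were called with these settings. PCDHGB2 lost its call in 8 of 10 settings in which it was tested. Members called under GSK126 numbered 1 without the TSA libraries and 0 otherwise, and those under S2101 0 throughout. The mean number of members detected per library, 13.7 untreated, 28.0 under TSA, 14.0 under GSK126 and 13.7 under S2101 at 1 CPM, was 29.0, 47.7, 31.7 and 32.7 at 0.2 CPM and 3.3, 6.3, 4.7 and 4.3 at 5 CPM. At 0.2 CPM a member needs about 3 reads, so depth limits these calls. No member called for a compound changed sign for that compound under an alternative. Of 684 values of single members under the alternatives, 32 had the opposite sign, and none of them was called (DESeq2 gave 1 of them no adjusted p). Leaving out a line in turn gave, as log2 changes under TSA, -0.31 to 0.48 for PCDHGA10 (0.02 with all lines) and -0.38 to 0.52 for PCDHGC3 (0.14). Under GSK126 it gave -0.08 to 0.73 for PCDHAC1, -0.04 to 0.25 for PCDHAC2, -0.30 to 0.09 for PCDHB5, -0.76 to 3.79 for PCDHB7, -0.01 to 0.16 for PCDHB9, -0.24 to 0.41 for PCDHGA10, -0.16 for PCDHGA11 (without MHCC97H) and -0.18 to 0.10 for PCDHGB1. Under S2101 it gave -0.28 to 0.31 for PCDHAC1, -0.06 to 0.26 for PCDHB2, -0.13 to 0.44 for PCDHB5, -1.44 to 3.10 for PCDHB7, -0.07 to 0.10 for PCDHB9, -0.49 to 1.02 for PCDHB11, -0.09 to 0.62 for PCDHB15, 0.21 for PCDHGA11 (without MHCC97H) and -0.06 to 0.33 for PCDHGB1. Without the A549 S2101 library the S2101 changes were -2.98 for PCDHA12 (0.21 with it), -0.20 for PCDHAC1, 0.00 for PCDHB2, -0.32 for PCDHB5, -0.06 for PCDHB9, -0.02 for PCDHB15, 0.07 for PCDHGA10 and -0.35 for PCDHGB6. Without the line term (no replicate block) PCDHB2 was at -0.07 and PCDHGA10 at -0.24 under TSA, and PCDHB9 at -0.01 and PCDHGA10 at 0.01 under S2101. DESeq2 gave 0.44 for PCDHB7 under GSK126. The alpha sum under S2101 was -0.05 and went to 0.20 without MHCC97H and 0.01 with library totals, that under GSK126 went from 0.20 to -0.05 without A549, and the beta sum under S2101 from 0.10 to -0.05 without A549. The cause of these changes was not tested.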
